A study of Rattus norvegicus with 71 samples.

Results

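The 10 genes described here belong to the Notch, Hes and Id network of neural progenitors and glia. They are the receptor gene Notch1, the repressor genes Hes1, Hes5 and Hey1, the Id genes Id1, Id2, Id3 and Id4, and the progenitor genes Sox2 and Nes. They were chosen by symbol with earlier results of these data known. Each matched 1 entry of the deposited count table, and they are 10 of its 19771 genes. The libraries come from primary cortical cells of the rat, grown on multi-well microelectrode array plates, dosed from 2 h after plating and collected on day 12 in culture. The 71 libraries form 25 groups: cytosine arabinoside at 0.1, 0.3 and 1 µM, 5-fluorouracil at 0.1, 0.3 and 1 µM, domoic acid at 0.1, 0.3 and 1 µM, haloperidol at 0.3, 1 and 3 µM, deltamethrin at 0.3, 1, 3 and 10 µM, cypermethrin at 1, 3 and 10 µM, and 0 µM for each of the 6 compounds, labelled as vehicle without its name. There were 3 libraries in 22 groups, 2 in the 0 µM groups of 5-fluorouracil and cypermethrin, and 1 at deltamethrin 0.3 µM. Each library was a pool of 2 to 3 wells. The labels name the tissue as neurons, but astrocyte, oligodendrocyte and progenitor markers were present beside pan-neuronal ones at 0 µM. The work used 2 separate cultures, and which culture a library came from was not given, so the p-values cover only the spread among these samples, which may be technical.

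Notch is a membrane receptor that is cut when a neighbouring cell presents a Delta or Jagged ligand. The freed intracellular part enters the nucleus, joins the DNA-binding protein RBPJ and switches on Hes and Hey genes, whose proteins repress the genes that drive neuronal differentiation. Id proteins, induced mainly by bone morphogenetic proteins (BMPs), lack a DNA-binding region and capture the E proteins that proneural factors need. In the developing cortex this network keeps radial glia and other progenitors undifferentiated and favours astrocytes over neurons, while Sox2 and nestin mark those progenitors.

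The promoters of Hes1, Hes5 and Notch1 are shown because they bring the parts of this circuit together: Hes1 and Hes5 are direct targets of the RBPJ complex, and Hes repressors bind the N-box. The windows are the 250 bases before the RefSeq start in build GRCr8, and 9 of the 10 genes had an entry, all but Hey1. Capitals mark TGGGAA, the core of the RBPJ site, and CACNAG, the N-box, on either strand. Hes1 lies at chr11:84213046-84213295 and Notch1 at chr3:29721614-29721863, both on the minus strand, and Hes5 at chr5:170804327-170804576 on the plus strand.
Hes1: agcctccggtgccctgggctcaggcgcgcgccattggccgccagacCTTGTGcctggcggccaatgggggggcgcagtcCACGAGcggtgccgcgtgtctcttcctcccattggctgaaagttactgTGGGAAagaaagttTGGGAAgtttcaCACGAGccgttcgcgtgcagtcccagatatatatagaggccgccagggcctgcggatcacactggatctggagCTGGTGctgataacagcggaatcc
Hes5: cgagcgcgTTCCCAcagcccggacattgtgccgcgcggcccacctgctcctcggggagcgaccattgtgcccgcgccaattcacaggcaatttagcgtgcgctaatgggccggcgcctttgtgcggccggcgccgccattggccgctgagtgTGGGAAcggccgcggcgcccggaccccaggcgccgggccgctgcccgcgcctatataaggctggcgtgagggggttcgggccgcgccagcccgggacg
Notch1: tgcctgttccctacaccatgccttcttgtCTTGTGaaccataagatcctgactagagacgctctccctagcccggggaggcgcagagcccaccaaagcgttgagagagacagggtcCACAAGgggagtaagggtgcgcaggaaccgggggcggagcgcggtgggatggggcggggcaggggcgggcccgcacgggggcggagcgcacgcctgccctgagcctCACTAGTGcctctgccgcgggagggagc
TGGGAA was found 2 times in the Hes1 window, at −123 to −118 and −109 to −104 from the start, and 2 times in the Hes5 window, at −98 to −93 and, on the other strand, −242 to −237. It was in none of the other 7 windows and in 22.1% of the 33469 promoters of this length. The longer GTGGGAA, which contains it, was in the Hes1 and Hes5 windows and in 5.27% of all promoters. CACNAG was found 4 times each in the Hes1 and Notch1 windows, 2 of the 9 windows, and in 37.2% of all promoters. In Notch1 a pair of its matches overlap on opposite strands. GGCGCC, a palindrome of BMP-responsive elements, was found 4 times in the Hes5 window and in 8.69% of all promoters. Hes5 was 1 of the 9 windows to hold it, and no Id window did. These matches are letters in the sequence and not measured binding.

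Before any dosing effect, the 16 libraries at 0 µM show how variable each gene was (the plot of control libraries). Levels are CPM, counts scaled to library size with library factors, and levels of different genes were not compared because transcript lengths were not used. Notch1 ran from 41.1 to 85.5 CPM with a median of 70 CPM, Nes from 83.2 to 192 CPM with a median of 114 CPM, and Id2 from 75.6 to 164 CPM with a median of 97.4 CPM. Hes1 lay between 4 and 10.1 CPM, from 49 to 168 counts a library. Hey1, Id1 and Id3 were low, at 1.45 to 3.19 CPM, 0.726 to 2.96 CPM and 0.933 to 4.37 CPM, and Hes5 was near the limit of detection, with 0 to 10 counts a library. The libraries came from sequencing projects GRC321 (24 libraries, 7.4 to 11.8 M counts each) and GRC327 (47 libraries, 5.2 to 43.1 M), and Sox2 and Id4 separated by project. Sox2 was at 99.7 to 125 CPM in the 5 GRC321 controls and at 46.9 to 69 CPM in the 11 GRC327 controls, without overlap. Id4 was at 27 to 49.5 CPM and at 8.41 to 16.2 CPM in the same libraries, also without overlap. Every group except 5-fluorouracil 0 µM held 1 GRC321 library, and a project term for each compound was in every test; project, culture and sequencing run cannot be told apart.

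**Figure D1:**
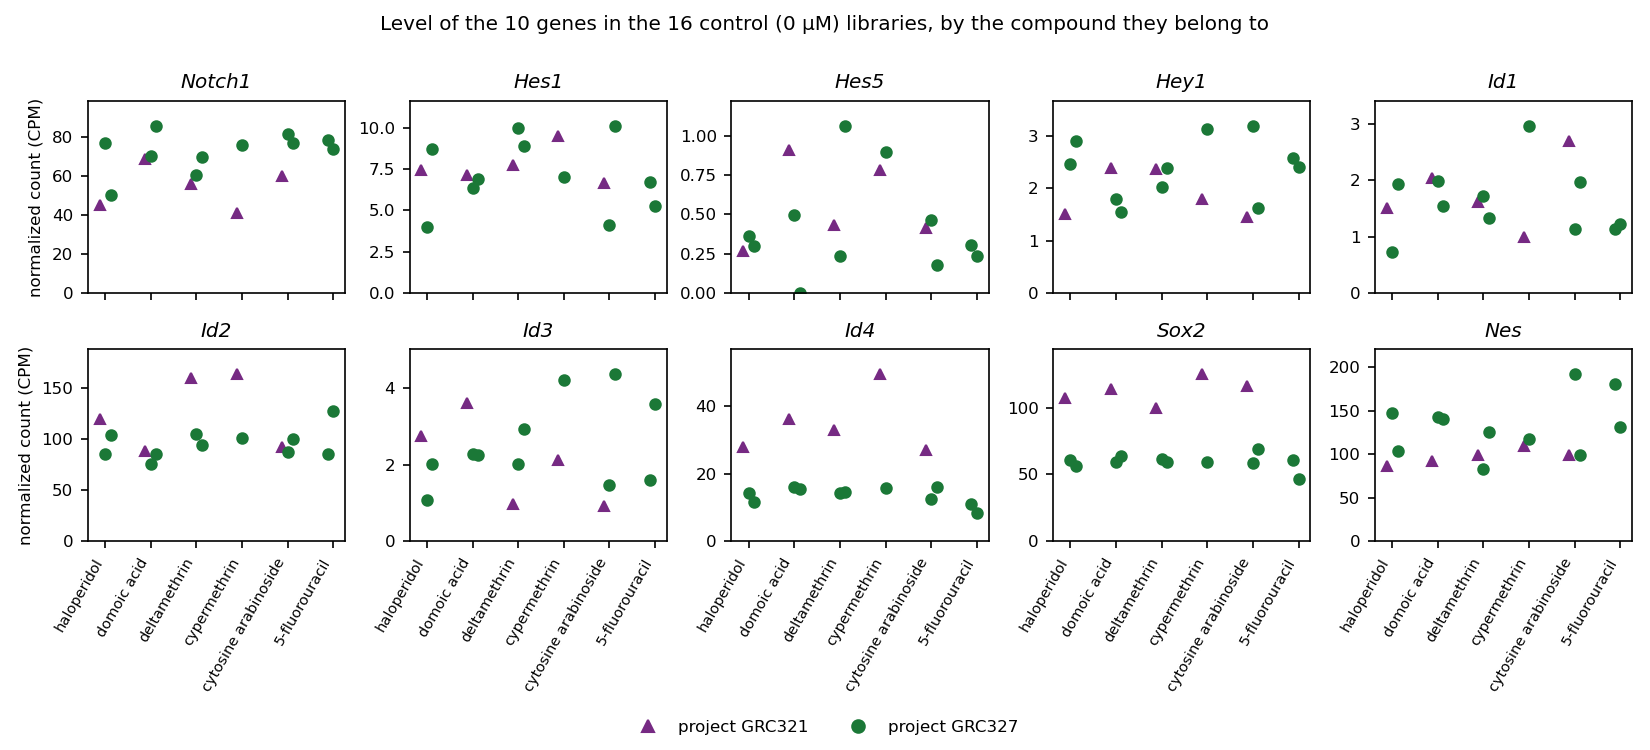
Level of each of the 10 genes (CPM, linear axis) in the 16 libraries at 0 µM, placed by the compound they belong to, with triangles for GRC321 and circles for GRC327. Sox2 and Id4 sit higher in every GRC321 library (Sox2 99.7 to 125 CPM) than in every GRC327 library (46.9 to 69 CPM), and the other 8 genes overlap between the projects.

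Cytosine arabinoside, a nucleoside analog that stops DNA synthesis in dividing cells, lowered most of the 10 genes, and more of them at each higher concentration. At 0.1 µM 4 were lower at an adjusted p under 0.05 (Notch1, Id3, Sox2 and Nes), against 6.75% of all 15343 tested genes called lower and 9.13% called in either direction. At 0.3 µM Id1 and Id4 joined them, making 6, against 11.7% of all genes lower and 17.6% in either direction. At 1 µM 7 were lower (Notch1, Hes1, Id1, Id3, Id4, Sox2 and Nes), against 19.4% of all genes lower and 36% in either direction, and none was higher at any concentration. The median log2 fold change of the 10 genes was −1.11, −1.73 and −2.64 at the 3 concentrations, and that of all tested genes at 1 µM was 0.03. Hes5, Hey1 and Id2 did not pass the test at any concentration. At 1 µM all libraries lay below all those at 0 µM for 7 genes (the called ones with Hes5 in place of Id4), a position that 15.8% of all genes held.

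**Figure D2:**
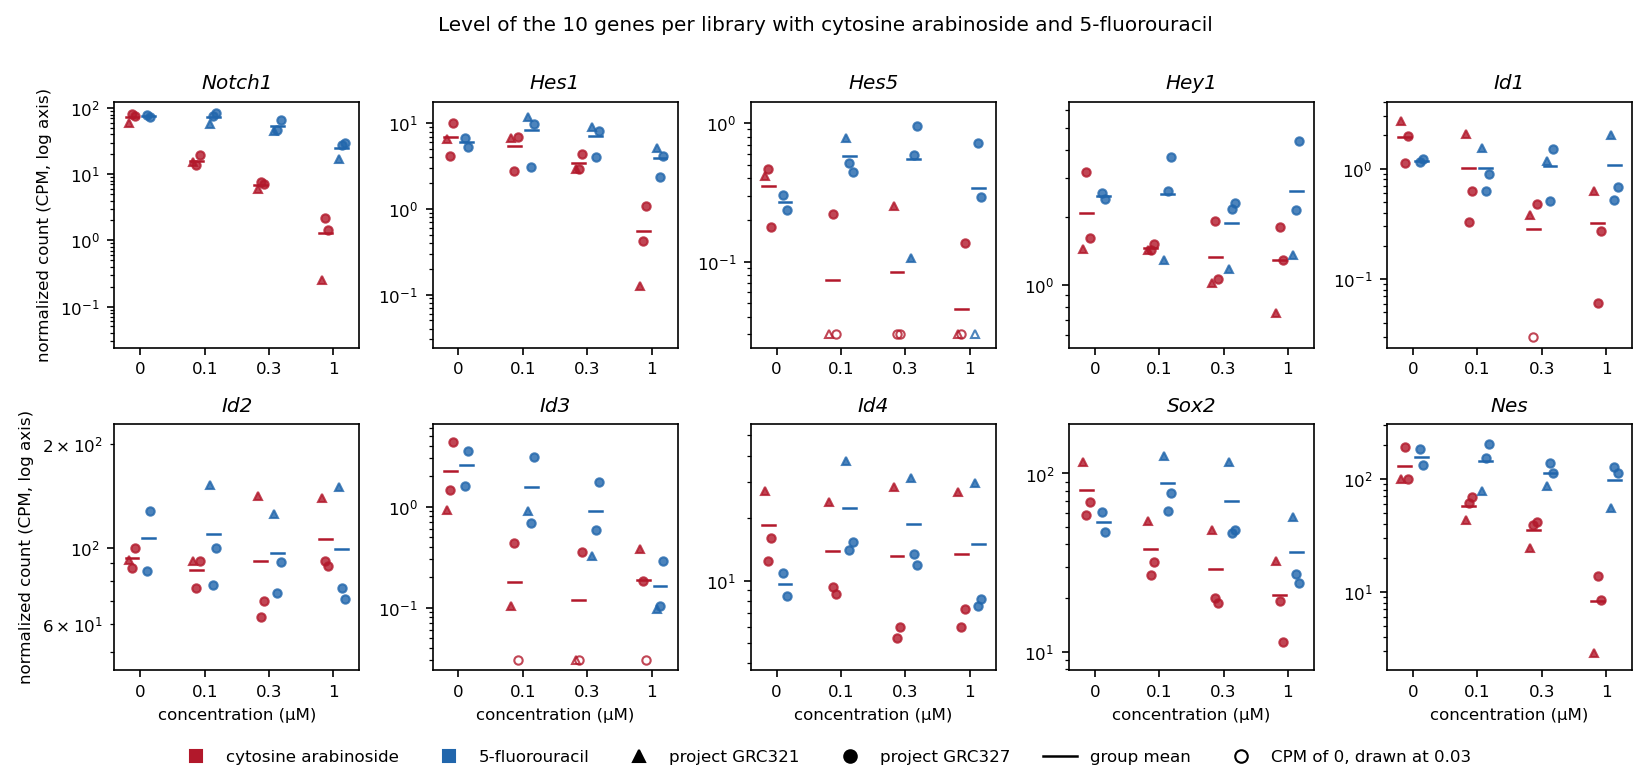
Level of each gene (CPM, log axis) in every library at 0, 0.1, 0.3 and 1 µM of cytosine arabinoside (red) and 5-fluorouracil (blue), with triangles for GRC321, circles for GRC327, bars for group means and open symbols for libraries at 0. Notch1 with cytosine arabinoside steps down at each concentration to a mean of 1.29 CPM at 1 µM. Id2 overlaps its 0 µM libraries at each concentration of cytosine arabinoside. At 0.3 and 1 µM of it Id4 is lower in the GRC327 libraries and near its 0 µM level in the GRC321 library.

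Notch1, the receptor (chromosome 3, 3905453 to 3951026 in the deposited table), had the largest log2 fold change of the 10 genes at 1 µM, and it fell at each step of concentration. Its level was 15.3, 13.7 and 19.4 CPM in the 3 libraries at 0.1 µM, 5.97, 7.67 and 7.15 CPM at 0.3 µM and 0.251, 2.19 and 1.43 CPM at 1 µM, against 60.1, 81.4 and 76.8 CPM at 0 µM, with the GRC321 library first each time. No library of any concentration overlapped those of the next. The log2 fold change was −2.16 ± 0.19 at 0.1 µM (SE; adjusted p = 2.4e-12), −3.39 ± 0.22 at 0.3 µM (adjusted p = 1.4e-17) and −5.67 ± 0.25 at 1 µM (adjusted p = 3.1e-24), the last a 51.1-fold lower level. Both steps between concentrations also passed, at −1.23 ± 0.23 for 0.3 over 0.1 µM (adjusted p = 3.1e-04) and −2.28 ± 0.29 for 1 over 0.3 µM (adjusted p = 4.0e-08). Over these steps 2.11% and 7.96% of all genes were called lower. The GRC321 library at 1 µM held 2 Notch1 counts, and also the highest mitochondrial share of these groups, 9.12% of its counts against 4.61% in the GRC321 library at 0 µM. Fitted by project, an alternative chosen after seeing the data, the change at 1 µM was −7.84 in GRC321 and −5.43 in GRC327.

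Hes1, the main Notch-induced repressor of progenitors (chromosome 11, 74312806 to 74315249), fell at 1 µM and missed the threshold at 0.3 µM. It had 6.69, 2.75 and 6.97 CPM at 0.1 µM, 2.92, 2.95 and 4.41 CPM at 0.3 µM and 0.126, 0.425 and 1.09 CPM at 1 µM, against 6.64, 4.11 and 10.1 CPM at 0 µM. The libraries at 0.1 and 0.3 µM overlapped those at 0 µM, and those at 1 µM lay below all others. The log2 fold change was −0.34 ± 0.36 at 0.1 µM (adjusted p = 0.67), −1.01 ± 0.39 at 0.3 µM (adjusted p = 0.062) and −3.52 ± 0.46 at 1 µM (adjusted p = 1.4e-08). The step from 0.3 to 1 µM was −2.51 ± 0.51 (adjusted p = 3.3e-04), and −3.38 (adjusted p = 1.3e-04) without replicate 3 at 1 µM. The 0.3 µM value passed without replicate 2 of the 0 µM libraries (−1.31, adjusted p = 0.018) and with DESeq2 (adjusted p = 0.041). It also passed against the 0 µM libraries of all compounds (−1.07, adjusted p = 0.01). Over all alternatives it ran from −1.07 to −0.87, with adjusted p up to 0.3. Without single libraries it ran from −1.31 to −0.59, with adjusted p up to 0.43. Without replicate 3 of the 1 µM libraries the 1 µM value was −4.39 (adjusted p = 4.6e-08). Fitted by project, it was −5.60 in GRC321, from a dosed library with 1 count, and −3.24 in GRC327.

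Hes5, the other main Notch effector in neural progenitors (chromosome 5, 172364421 to 172365189), was too low to judge. It had 2 counts in total in each dosed group, against 14 counts in the 3 libraries at 0 µM, and 0 counts in 2 of the 3 libraries at each concentration. At 1 µM the summed level was 6.62 times higher at 0 µM than in the dosed libraries, with a 95% interval of 1.52 to 60 that covers counting error only (adjusted p of the fitted change = 0.078). Without replicate 3 of the 1 µM libraries, which held both counts, the adjusted p was 0.026, and with the 0 µM libraries of all compounds as the control it was 0.009. Hey1, a repressor related to the Hes proteins (chromosome 2, 95320283 to 95322697), had 0.754, 1.82 and 1.29 CPM at 1 µM, against 1.45, 3.19 and 1.62 CPM at 0 µM. The groups overlapped, and the log2 fold change of −0.67 ± 0.38 had a 95% interval of −1.43 to 0.10 (adjusted p = 0.17). Against the 0 µM libraries of all compounds Hey1 passed, at −0.77 (adjusted p = 0.035).

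The Id genes did not move as a family. Id3 (chromosome 5, 154489590 to 154491224), which captures E proteins in progenitors and other cells, had 0.103, 0.439 and 0 CPM at 0.1 µM, 0, 0 and 0.357 CPM at 0.3 µM and 0.377, 0.182 and 0 CPM at 1 µM, against 0.933, 1.46 and 4.37 CPM at 0 µM. Every dosed library lay below every library at 0 µM already at the lowest concentration. The log2 fold change was −3.48 ± 0.84 at 0.1 µM (adjusted p = 0.0037) and −3.80 ± 0.81 at 1 µM (adjusted p = 1.7e-04). At 0.3 µM 3 counts remained against 104, a summed level 19.3 times higher at 0 µM (95% counting interval 6.42 to 95; adjusted p = 0.0012). The 0.1 µM call was lost without replicate 3 at 0.1 µM (−2.84, adjusted p = 0.054) or without replicate 3 at 0 µM (−2.67, adjusted p = 0.076). Its size rested on few counts: leaving out single libraries gave −4.85 to −2.67 at 0.1 µM, −7.52 to −3.18 at 0.3 µM and −4.79 to −2.94 at 1 µM. The libraries that moved it by over 1.5 times were replicates 2 and 3 at 0.1 µM, replicates 2 and 3 at 0.3 µM, replicates 1 and 3 at 1 µM, and replicate 3 at 0 µM.

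Id1 (chromosome 3, 148215540 to 148216719), the classic BMP-induced member, had 2.06, 0.329 and 0.633 CPM at 0.1 µM, 0.381, 0 and 0.477 CPM at 0.3 µM and 0.629, 0.0607 and 0.272 CPM at 1 µM, against 2.7, 1.13 and 1.97 CPM at 0 µM. Only at 0.3 and 1 µM were all dosed libraries below all libraries at 0 µM. The log2 fold change was −1.11 ± 0.50 at 0.1 µM (adjusted p = 0.18), −2.72 ± 0.62 at 0.3 µM (adjusted p = 7.9e-04) and −2.77 ± 0.56 at 1 µM (adjusted p = 6.9e-05). The 1 over 0.3 µM step was −0.06 ± 0.73 with a 95% interval of −1.53 to 1.41 (adjusted p = 0.97). Without replicate 3 at 0.3 µM, 1 of 2 libraries with counts, the 0.3 µM value was −3.68 (adjusted p = 4.5e-04). Id2 (chromosome 6, 44348501 to 44363916), which is also made by neurons, had 139, 91.5 and 88.2 CPM at 1 µM, against 92.1, 87.3 and 99.9 CPM at 0 µM. These groups overlapped, and the log2 fold change was 0.14 ± 0.19, with a 95% interval of −0.25 to 0.53 (adjusted p = 0.61). At 0.3 µM Id2 ran from 63.1 to 141 CPM, with a log2 fold change of −0.11 (adjusted p = 0.78). Fitted by project, an alternative chosen after seeing the data, the 0.3 µM change was 0.61 in GRC321 and −0.49 in GRC327. At 1 µM these values were 0.60 and −0.06. The GRC321 values rest on 1 dosed library each.

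Id4 (chromosome 17, 16692557 to 16695127), which is made by astrocytes and neural stem cells, was called lower at 0.3 µM (−0.80 ± 0.20, adjusted p = 0.002) and 1 µM (−0.74 ± 0.19, adjusted p = 0.0014), but this rested on the GRC327 libraries. In those it had 5.31 and 5.96 CPM at 0.3 µM and 6.01 and 7.33 CPM at 1 µM, against 12.5 and 16 CPM at 0 µM. In the GRC321 libraries it had 28.1 CPM at 0.3 µM and 26.8 CPM at 1 µM, against 27 CPM at 0 µM. Fitted by project, an alternative chosen after seeing the data, the change at 0.3 µM was 0.06 in GRC321 and −1.33 in GRC327, and at 1 µM −0.01 and −1.09. The difference between the projects was 1.39 ± 0.35 at 0.3 µM (adjusted p = 0.41) and 1.09 ± 0.34 at 1 µM (adjusted p = 0.094) in edgeR's test, which did not pass over all genes. At 0.1 µM the value was −0.54 ± 0.19 (adjusted p = 0.065), and −0.85 (adjusted p = 0.0027) without replicate 1 at 0 µM, the GRC321 library. Without the project term neither concentration passed, at −0.48 (adjusted p = 0.86) and −0.49 (adjusted p = 0.7), and in a fit of this compound alone the 0.3 µM value was −0.81 (adjusted p = 0.056).

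Sox2, a transcription factor that maintains neural stem cells and stays on in astrocytes (chromosome 2, 121165137 to 121167546), fell in both projects. It had 54.3, 27.1 and 31.9 CPM at 0.1 µM, 48.2, 20.1 and 18.8 CPM at 0.3 µM and 32.2, 19.2 and 11.3 CPM at 1 µM, against 116, 58.5 and 69 CPM at 0 µM. Each dosed library lay below the 0 µM libraries of its own project and, at every concentration, below all 3 of them. The log2 fold change was −1.11 ± 0.14 at 0.1 µM (adjusted p = 5.1e-08), −1.55 ± 0.15 at 0.3 µM (adjusted p = 3.5e-12) and −1.99 ± 0.15 at 1 µM (adjusted p = 2.1e-16). At 1 µM it was −1.85 in GRC321 and −2.06 in GRC327. Without the project term the value at 0.1 µM, −1.10, did not pass (adjusted p = 0.28). The step from 0.3 to 1 µM was −0.44 ± 0.15 (adjusted p = 0.037), a call that was lost in 4 of the 6 fits without 1 of those libraries, namely replicates 1 and 2 at 0.3 µM and 1 and 3 at 1 µM (adjusted p = 0.05 to 0.37). It was also lost without the count filter (adjusted p = 0.056), without the project term (0.74), in GRC327 alone (0.36) and in a fit of this compound alone (0.2), at −0.49 to −0.34.

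Nes encodes nestin, the intermediate filament of neural progenitors (chromosome 2, 187344056 to 187352970). It had 43.1, 60.9 and 68.9 CPM at 0.1 µM, 24.3, 38.6 and 41.3 CPM at 0.3 µM and 2.89, 13.7 and 8.42 CPM at 1 µM, against 98.7, 192 and 99.2 CPM at 0 µM. The 4 groups were fully separated, in the order of concentration. The log2 fold change was −1.17 ± 0.21 at 0.1 µM (adjusted p = 3.9e-05), −1.92 ± 0.21 at 0.3 µM (adjusted p = 4.8e-10) and −3.98 ± 0.24 at 1 µM (adjusted p = 1.5e-19), the last 15.8-fold lower. Fitted by project, the 1 µM change was −5.09 in GRC321, from 1 dosed library, and −3.71 in GRC327. The step from 0.3 to 1 µM was −2.06 ± 0.24 (adjusted p = 3.0e-09). The step from 0.1 to 0.3 µM was −0.74 ± 0.21 (adjusted p = 0.047), and it no longer passed when any 1 of its 6 libraries was left out (adjusted p = 0.053 to 0.3).

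Markers of glia moved with these genes at 1 µM cytosine arabinoside. Of 14 oligodendrocyte lineage markers 13 were lower, and their summed level was 80.3 to 109 CPM, against 1450 to 1800 CPM at 0 µM. Of 14 astrocyte markers 12 were lower and 1 higher, with a sum of 403 to 471 CPM, against 3390 to 5050 CPM. Of 16 cell cycle genes 15 were lower, with a sum of 96.6 to 119 CPM, against 431 to 480 CPM. Of 10 pan-neuronal markers 2 were higher and 1 lower, with a sum of 8560 to 12700 CPM, against 9580 to 12700 CPM. Beside these counts, 16.6% of all tested genes were called higher and 19.4% lower. Of the neuronal subtype sums, that of GABAergic markers rose without overlap, and that of glutamatergic markers overlapped its 0 µM range. Of 11 GABAergic markers 8 were higher, with a sum of 3100 to 4520 CPM, against 627 to 796 CPM, and of 10 glutamatergic markers 2 were higher and 3 lower, with a sum of 1190 to 1690 CPM, against 1640 to 1980 CPM. Endothelial markers, which can carry Notch1, Hey1 and Id genes, were near 0 throughout, at 3.12 to 4.19 CPM for 10 genes, against 3.32 to 5.5 CPM, with 1 of them at 0 in every library of each group, and 8 microglial markers summed to 0.377 to 0.747 CPM, against 0.538 to 1.33 CPM, with 4 of them at 0 in every library at 1 µM and 1 in every library at 0 µM. Mural markers (10 genes) summed to 6.66 to 15.8 CPM, against 71 to 137 CPM, and fibroblast markers (7 genes) to 2.55 to 13.2 CPM, against 13.9 to 105 CPM. No defining marker of the oligodendrocyte, astrocyte, cell cycle or pan-neuronal lists was at 0 in every library of either group. In bulk RNA, fewer cells of a type and less RNA per cell cannot be told apart, and the part of these markers in the results was not tested.

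5-Fluorouracil, a pyrimidine base analog that blocks thymidylate synthesis and enters RNA and DNA, lowered 3 of the 10 genes at 1 µM: Notch1, Id3 and Sox2, against 3.34% of all tested genes called lower. Notch1 had 17.2, 28.1 and 29.7 CPM at 1 µM, against 78.5 and 73.6 CPM at 0 µM, a log2 fold change of −1.47 ± 0.21 (adjusted p = 9.9e-07) with no overlap. Sox2 had 27.4 and 24.2 CPM in the GRC327 libraries at 1 µM, against 60.5 and 46.9 CPM at 0 µM, where both libraries were from GRC327. The GRC321 library at 1 µM, at 56.8 CPM, lay within the 0 µM range but below the 126 and 116 CPM of the GRC321 libraries at 0.1 and 0.3 µM. With the project term the change in Sox2 was −1.04 ± 0.16 (adjusted p = 7.3e-06), and without it −0.57 (adjusted p = 0.87). Id3 had 0.0968, 0.103 and 0.292 CPM, from 5 counts in all, against 1.6 and 3.59 CPM from 82 counts, and its change of −3.58 ± 0.89 passed (adjusted p = 0.0089). That call was lost without replicate 2 at 1 µM (−3.18, adjusted p = 0.11), replicate 3 at 1 µM (−4.06, adjusted p = 0.056) or replicate 2 at 0 µM (−2.87, adjusted p = 0.19).

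The other 7 genes did not pass at 1 µM of 5-fluorouracil. Hes1 had 5.23, 2.38 and 4.18 CPM, against 6.69 and 5.29 CPM at 0 µM, a log2 fold change of −0.89 ± 0.42 (adjusted p = 0.29) with no overlap. Nes had 54.6, 126 and 113 CPM, against 181 and 131 CPM, a change of −0.45 ± 0.23 (adjusted p = 0.34), also with no overlap. In all 4 of the 10 genes had all their 1 µM libraries below both 0 µM libraries, a position that 13.8% of all genes held. These positions were not adjusted for project: the 1 µM group held 1 GRC321 library, and both 0 µM libraries were from GRC327. Nes had a median of 98.7 CPM in the GRC321 controls and 131 CPM in the GRC327 controls of all compounds. Id1, Id2 and Id4 had log2 fold changes of −0.63 ± 0.57, −0.46 ± 0.22 and −0.13 ± 0.22, and Hes5 and Hey1 had 0.54 ± 1.01 and 0.37 ± 0.41. Against the 0 µM libraries of all compounds Id4 and Hes1 passed, at −0.56 (adjusted p = 0.026) and −0.89 (adjusted p = 0.035), and over the alternatives Id4 ran from −0.56 to 0.65. At 0.1 and 0.3 µM edgeR called 0 of the 10 genes, against 0.00652% and 0.0456% of all genes called in either direction. DESeq2 and limma also called 0 of the 10. At each concentration 1 gene had an unadjusted p under 0.05 (Id4, 0.55 ± 0.22 at 0.1 µM, and Id2, −0.45 ± 0.22 at 0.3 µM). Of all 15343 genes 399 and 474 had an unadjusted p under 0.05. Notch1 was at 72.6 ± 12.9 CPM at 0.1 µM and 53.1 ± 11.9 CPM at 0.3 µM (SD, n = 3 each), against 76.1 ± 3.47 CPM at 0 µM (SD, n = 2). At 1 µM 13 of 14 oligodendrocyte markers, 3 of 14 astrocyte markers and 4 of 16 cell cycle genes were also lower, with sums of 184 to 217, 2310 to 2820 and 220 to 276 CPM, against 1660 to 1700, 3850 to 4210 and 355 to 535 CPM. Mural markers (1 of 6 tested lower) summed to 12.8 to 22.1 CPM, against 99.2 to 115 CPM, and GABAergic markers (2 of 11 higher) to 1100 to 1290 CPM, against 796 to 829 CPM. Of all tested genes 3.34% were called lower and 0.691% higher at 1 µM. The part of these markers in the result was not tested.

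**Figure D3:**
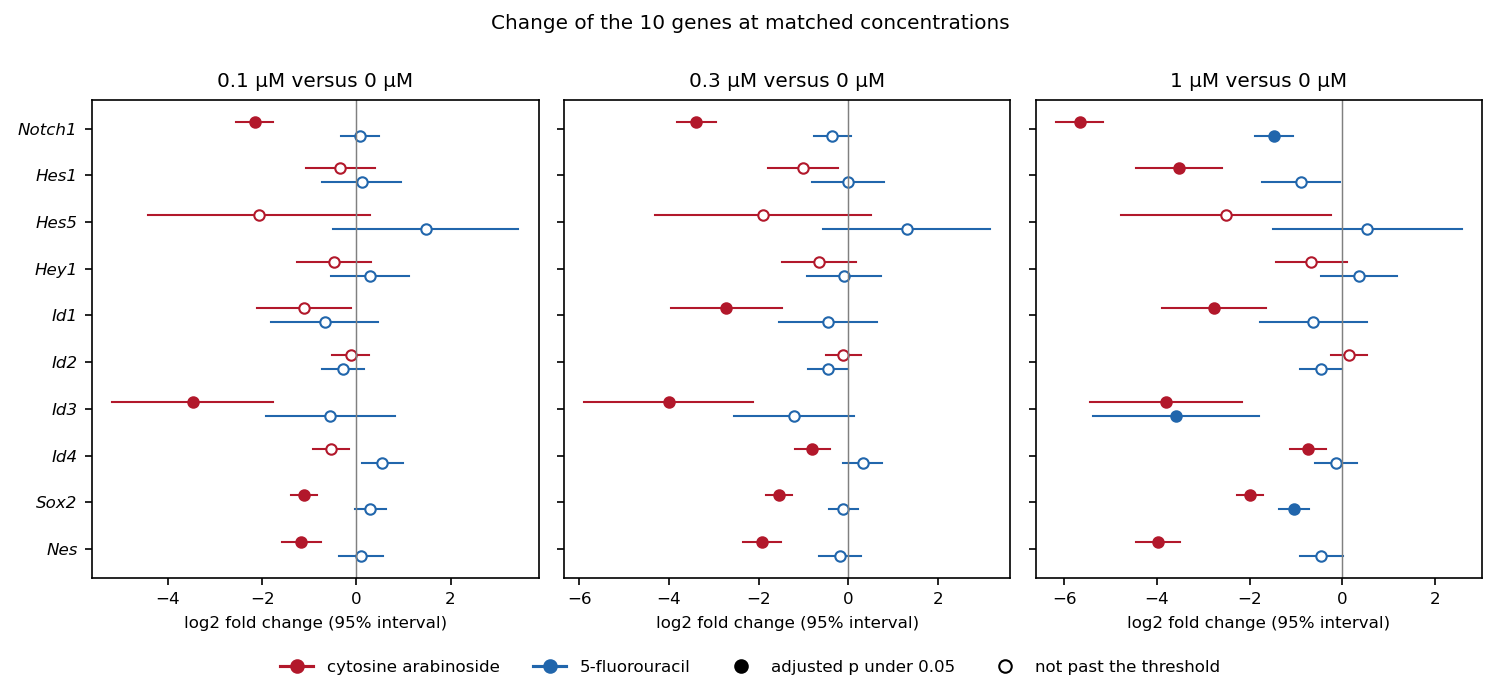
log2 fold change of each gene against its own 0 µM libraries with cytosine arabinoside (red) and 5-fluorouracil (blue) at 0.1, 0.3 and 1 µM, with bars for 95% intervals and filled symbols for an adjusted p under 0.05. At 1 µM the intervals of Notch1, Hes1, Sox2 and Nes lie apart, and those of Id3 (−3.80 and −3.58) nearly coincide.

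The difference between the effects of cytosine arabinoside and 5-fluorouracil was tested at the 3 concentrations they share. A nucleoside analog carries a sugar and a base analog does not, and equal concentrations need not be equal in strength. The difference in Notch1 was −2.24 ± 0.28 at 0.1 µM (adjusted p = 1.3e-07), −3.03 ± 0.30 at 0.3 µM (adjusted p = 1.5e-10) and −4.20 ± 0.34 at 1 µM (adjusted p = 5.9e-14). The difference in Nes was −1.27 ± 0.31, −1.73 ± 0.32 and −3.53 ± 0.33 (adjusted p = 0.0076, 8.9e-05 and 7.7e-12), and that in Sox2 was −1.41 ± 0.21, −1.44 ± 0.22 and −0.95 ± 0.22 (adjusted p = 6.4e-06, 2.6e-06 and 0.0012). Hes1 differed at 1 µM, by −2.63 ± 0.65 (adjusted p = 0.0029), and by −3.50 (adjusted p = 6.8e-04) without replicate 3 of the cytosine arabinoside libraries at 1 µM. Within GRC327 alone it was −2.39 and did not pass (adjusted p = 0.068). Id4 differed at 0.1 µM (−1.09 ± 0.29, adjusted p = 0.018) and 0.3 µM (−1.12 ± 0.29, adjusted p = 0.0094). So 4 of the 10 genes differed at each concentration, against 3.42%, 5.19% and 8.64% of all genes called lower with cytosine arabinoside. Id4 at 0.1 µM was called with neither compound, at −0.54 with cytosine arabinoside and 0.55 with 5-fluorouracil. The 5-fluorouracil 0 µM libraries, both from GRC327, had the lowest mean Id4 level of all groups, 9.63 CPM. Without the project term 1 gene differed at 0.1 µM, 1 at 0.3 µM and 3 at 1 µM. The values that then did not pass were −1.82, −1.87 and −1.40 for Sox2 at the 3 concentrations (adjusted p = 0.34, 0.22 and 0.34), −1.61 and −1.45 for Id4 at 0.1 and 0.3 µM, and −1.05 and −1.42 for Nes.

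Some of these calls depended on single libraries, as did the size of the Hes1 difference at 1 µM (−3.50 to −2.18 without single libraries). The Id4 difference was lost at 0.1 µM in 4 fits, without cytosine arabinoside 0.1 µM replicate 1 or 0 µM replicate 3, or 5-fluorouracil 0.1 µM replicate 3 or 0 µM replicate 2 (−1.03 to −0.86, adjusted p = 0.08 to 0.19). At 0.3 µM it was lost in 3 fits, without cytosine arabinoside 0.3 µM replicate 2 or 0 µM replicate 3, or 5-fluorouracil 0 µM replicate 2 (−0.97 to −0.89, adjusted p = 0.051 to 0.13). The Nes difference at 0.1 µM was lost in 3 fits, without cytosine arabinoside 0 µM replicate 2, or 5-fluorouracil 0.1 µM replicate 3 or 0 µM replicate 2 (−1.08 to −1.04, adjusted p = 0.051 to 0.13). For Id3 at 1 µM no difference was detectable, at −0.22 ± 1.38 with a 95% interval of −3.00 to 2.57 (adjusted p = 0.95), an interval that leaves room for large differences either way. Id1 differed by −2.15 ± 0.82 (95% interval −3.80 to −0.50), which did not pass (adjusted p = 0.077).

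The other 4 compounds left the 10 genes without a called change. Over 13 comparisons with 0 µM, 130 tests of a gene, edgeR called 0, as did DESeq2 and limma, and 5 had an unadjusted p under 0.05. In these comparisons edgeR called between 0% of all genes and, at domoic acid 0.3 µM, 1.51%. At haloperidol 3 µM it called 0.0261%. Of all 15343 genes, 293 (deltamethrin 3 µM) to 3452 (domoic acid 0.3 µM) had an unadjusted p under 0.05. The concentration trends of the 4 compounds gave 0 calls and 2 unadjusted p under 0.05 among the 10 genes. Among all genes 620 (deltamethrin) to 1182 (cypermethrin) had an unadjusted p under 0.05 for the trend. Group means of Notch1 ran from 57.5 CPM (haloperidol 0 µM) to 79.4 CPM (domoic acid 0.3 µM), those of Hes1 from 5.7 CPM (haloperidol 3 µM) to 9.59 CPM (deltamethrin 3 µM), and those of Nes from 73.6 CPM (deltamethrin 0.3 µM, 1 library) to 133 CPM (haloperidol 3 µM). Of the 130 log2 fold changes 126 were under 1 in size. The single library at deltamethrin 0.3 µM was from GRC321, where Sox2 and Id4 are higher, and at 113 and 34.2 CPM it was the highest group value of both genes.

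**Figure D4:**
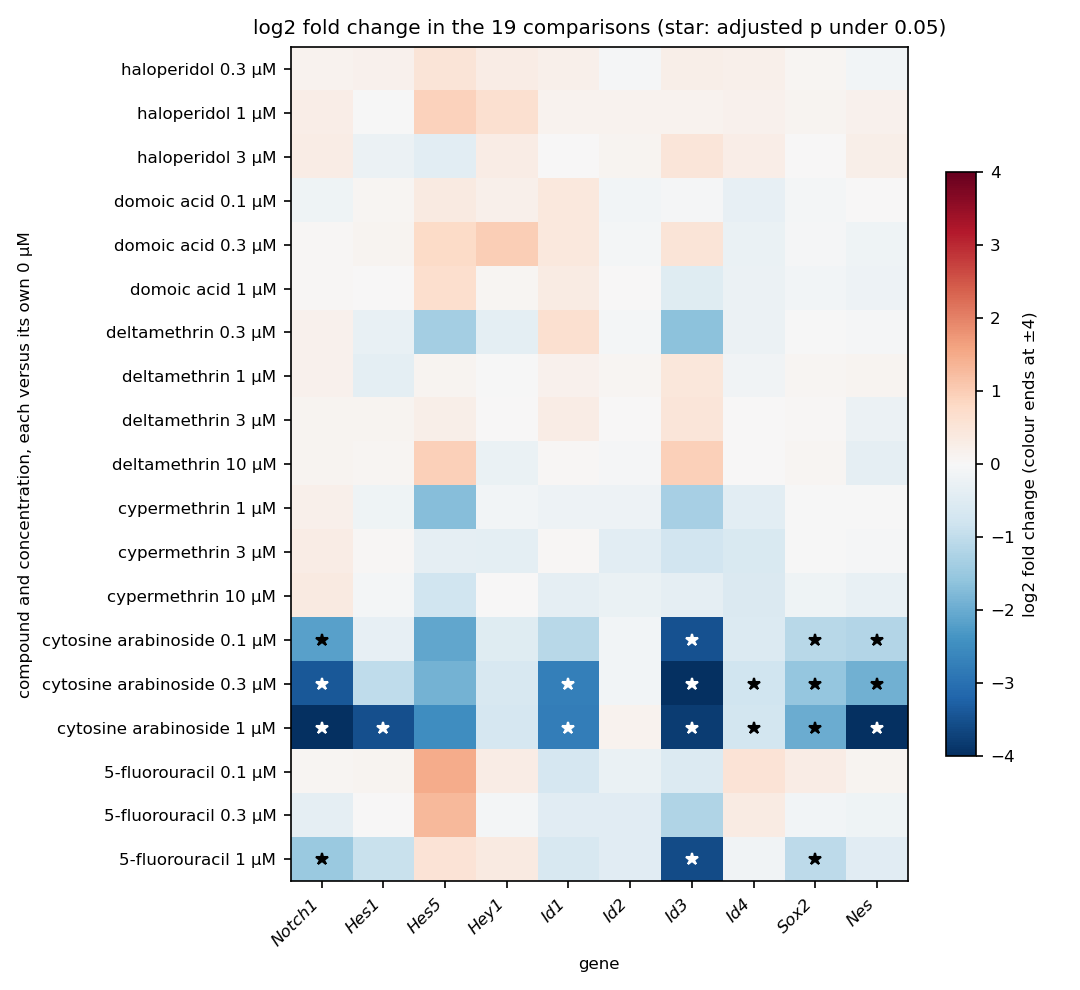
log2 fold change of the 10 genes (columns) in the 19 comparisons of a concentration with the 0 µM libraries of its compound (rows), blue for lower and red for higher, with a star at an adjusted p under 0.05. Stars appear with cytosine arabinoside at 0.1 µM (4), 0.3 µM (6) and 1 µM (7) and with 5-fluorouracil at 1 µM (3), and with no other compound.

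With domoic acid, an agonist of kainate and AMPA receptors, the smallest p of the 10 genes was that of Hey1 at 0.3 µM. Hey1 had 2.92, 5.22 and 3.04 CPM at 0.3 µM, against 2.38, 1.79 and 1.54 CPM at 0 µM, without overlap. Its log2 fold change was 0.98 ± 0.37 (adjusted p = 0.11; 1.21% of all genes were called higher here), and without replicate 1 at 0.3 µM, the GRC321 library, it was 1.17 (adjusted p = 0.039). Against the 0 µM libraries of all compounds it was 0.76 (adjusted p = 0.048). Over all alternatives the Hey1 change ran from 0.76 to 1.33, with adjusted p up to 0.49. Without single libraries it ran from 0.63 to 1.24, with adjusted p up to 0.99. At 1 µM Hey1 was at 2.05 ± 0.403 CPM, against 1.9 ± 0.427 CPM at 0 µM (SD, n = 3 each). Notch1 was at 67.6 ± 14.9, 79.4 ± 26.9 and 79.2 ± 18.1 CPM at 0.1, 0.3 and 1 µM, against 74.7 ± 9.31 CPM at 0 µM (SD, n = 3 each). With haloperidol, an antagonist of dopamine receptors, Notch1 was at 65.2 ± 23, 72.2 ± 25 and 72.4 ± 19.2 CPM at 0.3, 1 and 3 µM, against 57.5 ± 17 CPM at 0 µM (SD, n = 3 each), and Nes was at 103 ± 12.7, 127 ± 26.1 and 133 ± 28.4 CPM, against 113 ± 31 CPM. Every one of these Notch1 and Nes groups overlapped the libraries at 0 µM.

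Deltamethrin and cypermethrin are pyrethroids that hold sodium channels open and that differ in bromine against chlorine atoms on the vinyl group. With deltamethrin Notch1 was at 69.7 ± 15.4, 66.2 ± 2.63 and 66.7 ± 3.31 CPM at 1, 3 and 10 µM, against 62.2 ± 7.16 CPM at 0 µM (SD, n = 3 each). With cypermethrin it was at 68.4 ± 4.74, 73.9 ± 18.6 and 75.8 ± 17.8 CPM (SD, n = 3 each), against 58.3 ± 24.5 CPM at 0 µM (SD, n = 2). Id4 with cypermethrin had the smallest p-values, with log2 fold changes of −0.42 at 1 µM, −0.60 at 3 µM and −0.59 at 10 µM and adjusted p of 0.92, 0.80 and 0.59. At 10 µM it had 29.6 CPM in GRC321 and 11.4 and 12.7 CPM in GRC327, against 49.5 and 15.7 CPM at 0 µM. The difference between the effects of deltamethrin and cypermethrin was tested at 3 shared concentrations, 30 tests in all. Of these edgeR called 0, against 0% of all genes, and DESeq2 and limma also called 0. An unadjusted p under 0.05 was held by 3 of the 30. It was held by 1154, 590 and 1115 of all 15343 genes at 1, 3 and 10 µM. At 10 µM the difference was −0.24 (95% interval −0.78 to 0.30) for Notch1, 0.17 (−0.89 to 1.23) for Hes1, 0.26 (−0.16 to 0.67) for Sox2 and −0.04 (−0.66 to 0.57) for Nes.

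Around the 10 genes, the rest of the Notch pathway changed in parts at 1 µM cytosine arabinoside. Of 42 tested genes 19 were lower and 4 higher, against 19.4% and 16.6% of all genes. Their median log2 fold change was −0.37, against 0.03 for all genes. Among the other receptors Notch2 was at 4.44 ± 1.12 CPM, against 88.2 ± 12.9 CPM at 0 µM (SD, n = 3 each), a change of −4.29 ± 0.21, and Notch3 changed by −4.35 ± 0.22. Notch4, typical of endothelium, had a log2 fold change of −0.09 ± 0.32 (adjusted p = 0.86). Of the ligands Dll1, Dll3 and Jag1 fell, with log2 fold changes of −2.40 ± 0.23, −3.56 ± 0.64 and −1.19 ± 0.20, and Dlk2, a noncanonical ligand, rose by 0.73 ± 0.24. Lfng, a glycosyltransferase that tunes ligand choice, fell (−4.65 ± 0.46), and the E3 ligase genes Mib2 and Neurl1 rose by 0.71 ± 0.15 and 0.57 ± 0.16. The sheddase genes Adam10 and Adam17 fell (−1.04 ± 0.16 and −1.76 ± 0.17), and the 6 γ-secretase genes did not pass, with changes from −0.53 to 0.43. In the nuclear complex the coactivator gene Maml2 fell (−3.39 ± 0.22), as did Rbpj (−0.58 ± 0.14). Nrarp and Hey2, both Notch-induced, fell (−2.99 ± 0.23 and −3.99 ± 0.38), while Numb, an inhibitor of Notch, rose by 0.54 ± 0.21.

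**Figure D5:**
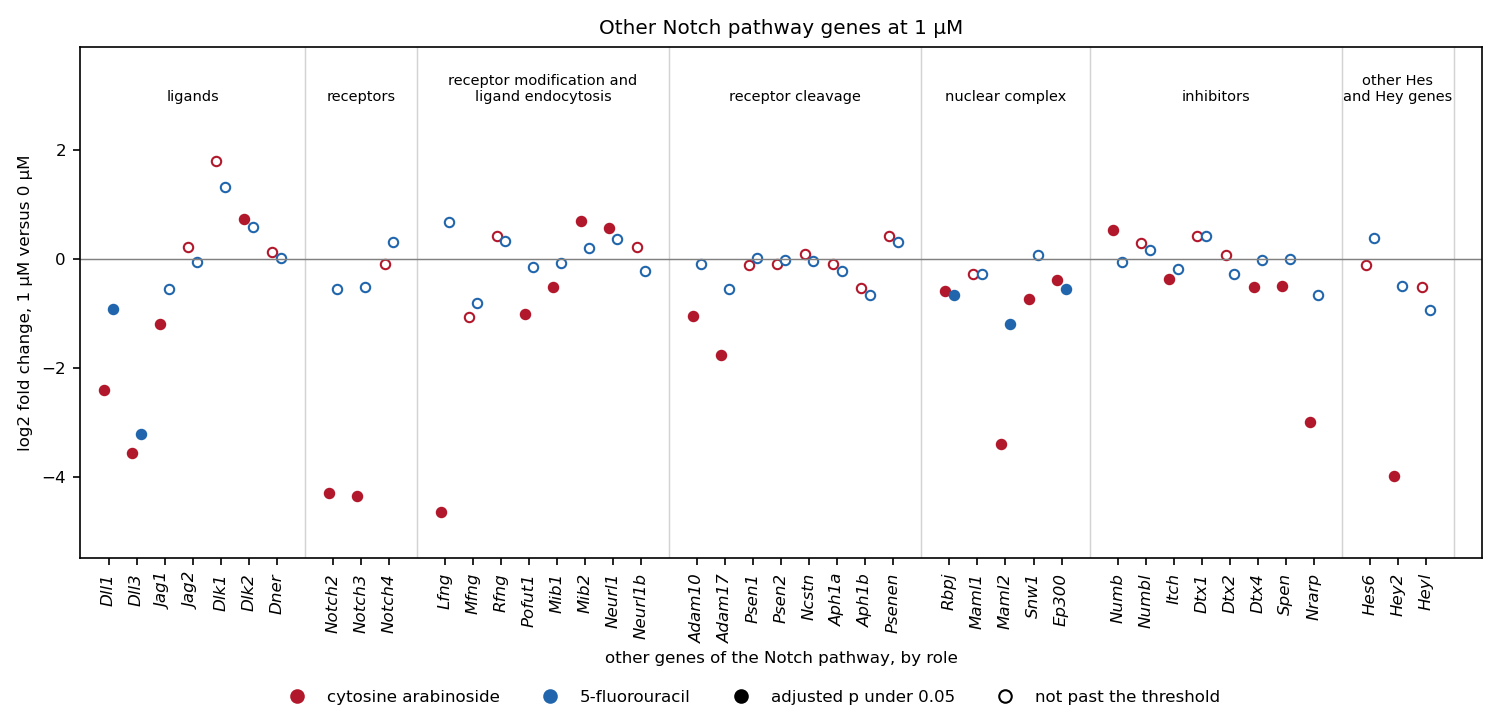
log2 fold change at 1 µM against 0 µM of 42 other genes of the Notch pathway, grouped by role, with cytosine arabinoside in red, 5-fluorouracil in blue and filled symbols for an adjusted p under 0.05. With cytosine arabinoside Lfng (−4.65), Notch3 (−4.35) and Notch2 (−4.29) lie lowest, and the γ-secretase genes lie near 0.

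At 1 µM of 5-fluorouracil 5 of the 42 Notch pathway genes were lower and 0 higher by edgeR, against 3.34% and 0.691% of all genes: Dll1 (−0.92 ± 0.25), Dll3 (−3.22 ± 0.73), Maml2 (−1.19 ± 0.21), Rbpj (−0.66 ± 0.16) and Ep300 (−0.54 ± 0.16). Notch2, Notch3 and Lfng had −0.54 ± 0.19, −0.51 ± 0.20 and 0.69 ± 0.34 and did not pass. The difference between the compounds passed in 11 of the 42 genes at 1 µM, all lower with cytosine arabinoside, against 8.64% of all genes. These lists, like the others, were chosen with earlier results of these data known.

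Upstream of the Id genes, 25 BMP pathway genes were tested, and at 1 µM cytosine arabinoside 8 were lower and 4 higher, against the same 19.4% and 16.6% of all genes. Bmp4, a ligand that induces Id genes, fell (−8.37 ± 0.52), and it also fell with 1 µM 5-fluorouracil (−6.55 ± 0.49). With cytosine arabinoside Bmp7, the receptor genes Bmpr1a and Bmpr1b and the transducer gene Smad5 fell too, with −4.28 ± 0.53, −1.56 ± 0.13, −3.61 ± 0.35 and −0.76 ± 0.13. Among the higher genes were the ligand genes Bmp2 (1.09 ± 0.26) and Gdf11 (0.33 ± 0.10) and the inhibitor gene Smad7 (0.57 ± 0.15). Downstream, of the 3 E protein genes Tcf12 and Tcf3 fell (−1.50 ± 0.14 and −0.84 ± 0.20), and Tcf4 had −0.17 ± 0.15 (adjusted p = 0.42).

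Sox2 and Nes were not alone among progenitor genes. Of 16 other radial glia and neural stem cell genes 10, 13 and 15 were lower at 0.1, 0.3 and 1 µM cytosine arabinoside, against 6.75%, 11.7% and 19.4% of all genes. Their medians were −0.87, −1.51 and −2.54, and Hopx did not pass at 1 µM (−0.74 ± 0.58, adjusted p = 0.33). Fabp7, a lipid-binding protein of radial glia, was at 24.8 ± 15.7 CPM at 1 µM, against 1460 ± 804 CPM at 0 µM (SD, n = 3 each), and Sox9, a glial transcription factor, at 9.15 ± 7.43 CPM, against 54.9 ± 14.8 CPM. With 1 µM 5-fluorouracil 6 of the 16 were lower, against 3.34% of all genes, among them Ptprz1 (−0.86 ± 0.17), Sox9 (−0.98 ± 0.19) and Fabp7 (−1.49 ± 0.34), with a median of −0.64.

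The genes whose log2 levels ran most like each of the 10 were found over all 71 libraries among 12241 genes, as a description, since all points share their libraries and cytosine arabinoside drives most of the range. For Notch1 they were Olig2 (Pearson r = 0.98), a transcription factor of the oligodendrocyte lineage, Lrp4 (0.97) and Dock1 (0.97), with 0.97 to 0.98 in the 47 GRC327 libraries. For Sox2 they were Sox9 (0.96), Gstp1 (0.94) and Sall3 (0.93), and for Nes Itpr2 (0.95), Notch3 (0.94) and Olig2 (0.94). For Id3 they were Tspan11, the myelin gene Mbp and Bmp4, each at 0.87, and for Hes1 Ctdsp1 (0.88), Zfp36l2 (0.88) and Vcam1 (0.87). Id4 was most like Asah1 (0.96), Poglut1 (0.95) and Marcks (0.95), but these values were 0.81, 0.82 and 0.76 within GRC327. Id2 was most like Hnrnpk, at 0.81 over all libraries and 0.43 within GRC327. The nearest genes were looser for Hes5 (Gsta4, 0.65), Hey1 (Zfp219, 0.78) and Id1 (Fmo1, 0.76). Among the 10 genes themselves Notch1 and Nes had r = 0.93, Notch1 and Hes1 0.81, and Sox2 and Id4 0.84. Notch1 and Sox2 had 0.60 over all libraries and 0.94 within GRC327, and Notch1 and Id2 had −0.08 and 0.15.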

How the data were processed

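Per the labels, polyA-selected libraries were made from pooled wells; the submitters' processing notes name STAR and Partek, and the genome build and strandedness are not given in the sources used here. The authors deposited a table of expected counts per gene, in which 20.6% of values were not whole (tolerance 1e-06), and a table of CPM (counts scaled to library size) made from it with an offset of 0.0001. Columns were matched to libraries by their titles. Totals were 5.2 to 43.1 M per library (median 10.2 M), which limits the precision of Hes5, Id1 and Id3 most; counting intervals and floors cover counting error only.

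Counts were rounded to whole numbers and tested with edgeR 4.0.16 (R 4.3.3) by its quasi-likelihood test with TMM factors (0.875 to 1.155), a minimum count of 10 by group (15343 of 19771 genes kept), 25 group terms and 6 project terms, with 40 residual degrees of freedom. Benjamini-Hochberg adjustment ran over all tested genes in each of 33 comparisons, and a call is an adjusted p under 0.05. Printed CPM levels are library totals scaled by TMM. Each SE was not taken from the fit: it is the size of the log2 fold change divided by the square root of the test's F statistic. The intervals of fold changes and differences were built from this SE. Both are approximate, and for large falls at low counts they may not show the full uncertainty. DESeq2 1.42.0, limma 3.58.1 on log2 of the deposited CPM, other filters, no project term, the GRC327 libraries alone, fits per compound, pooled 0 µM controls and leaving out each library were the alternatives. The test was first run on simulated counts, only for 1 µM against 0 µM of cytosine arabinoside and of 5-fluorouracil. These counts held no project effect, so the project terms and the differences between compounds were not covered. Beside the 10, up to 6 genes a pathway list with the smallest p at 1 µM were named, with those called against its main direction, and for each of the 10 genes the 3 with the highest Pearson correlation; Notch4, Jag1, Lfng, Adam10, Tcf4 and Hopx were named after their values were seen, and Dll1, Dll3, Rbpj and Smad5 through 5-fluorouracil. The 10 genes and all lists were chosen with earlier results of these data known. Hes5, Hey1, Id2, Id3, Sox2 and Nes lie within merged models of multi-copy RNAs in the deposited table, which span at least 98604 kb and could share reads with them if strand and overlap were ignored. Some genes of the pathway lists are counted but not reported by name here.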

Additional observations from a re-analysis of the deposited data

How the results depend on the processing

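Over 9 alternatives and 70 fits without 1 library, 24 and 28 calls of the 10 genes were lost and 14 and 9 gained. With the 0 µM libraries of all compounds as the control, 1 gene was called at domoic acid 0.3 µM in place of 0, 5 at 5-fluorouracil 1 µM in place of 3, and 5 in the 5-fluorouracil trend in place of 3 (Hes1 and Id4 gained). Cytosine arabinoside then had 9 calls in place of 7 at 1 µM and in its trend (Hes5 and Hey1 gained). Without the project term 1 gene differed between cytosine arabinoside and 5-fluorouracil at 0.1 µM, and 1 at 0.3 µM, in place of 4 each. The step from 0.1 to 0.3 µM cytosine arabinoside held 1 call in place of 2 without a filter, without the project term, in GRC327 alone, in a fit per compound and with limma. The fall of Id4 at 0.3 µM cytosine arabinoside (−0.80) turned to 0.06 in GRC321 alone; the cause was not tested.

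Leaving out single libraries gave 0 to 1 calls at domoic acid 0.3 µM, 2 to 5 for the difference at 0.1 µM, and 1 to 1 for the step from 0.1 to 0.3 µM. For cytosine arabinoside it gave 3 to 5, 6 to 7 and 7 to 8 calls at 0.1, 0.3 and 1 µM, and for 5-fluorouracil 2 to 3 at 1 µM. The trend of Id3 was lost without cytosine arabinoside 0.1 µM replicate 2, and that of 5-fluorouracil without 1 µM replicate 2 or 0 µM replicate 2. Hes5 and Id1 were not tested at a minimum count of 50, nor Hes5 and Id3 in some fits per compound, and DESeq2 gave no adjusted p for some tests of low genes. No paired analysis was possible because the labels give no replicate numbers or sets; the numbers used here follow accession order, and project, which the titles give, was a term in every test. Depth limits Hes5, which had 0 counts in 8 libraries.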
